A study of Mus musculus with 9 samples.

Results

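The 36 genes described here encode the proteins of synaptic vesicles and of the machinery that releases and recycles them. They were taken by name from a table of 33586 gene entries measured in mouse brain, and each of the 36 names had 1 entry. The libraries come from a model of intracerebral haemorrhage made by injecting collagenase, and the tissue is described as lying beside the haematoma. They fall into an intervention, an experimental and a control group of 3 libraries each. The series title names miR-124 carried on a tetrahedral nucleic acid nanomaterial as a treatment of the haemorrhage, while the treatment of each group is missing from the labels, also for the control. Strain, sex, age and time of sampling are likewise not given in the sources used here. The labels also do not say that the 3 libraries of a group are separate animals, so p-values measure only the spread between these libraries, which may be technical.

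A synaptic vesicle is filled with transmitter, tethered near the presynaptic membrane, primed, and fused when calcium enters the terminal. The fusing force comes from SNARE proteins, with synaptobrevin (VAMP) on the vesicle and syntaxin and SNAP-25 on the plasma membrane. Synaptotagmins sense the calcium, complexins hold and then help the SNARE complex, Rab3 proteins guide vesicles to the membrane, and the scaffold of the active zone gathers vesicles and calcium channels. After fusion, dynamin, synaptojanin and amphiphysin help to retrieve the membrane, and NSF with its SNAP adaptors takes the used SNARE complexes apart.

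Values are FPKM, fragments scaled by transcript length and by the mapped fragments of a library, as the authors deposited them. The scale is per length, so levels of different genes can be set side by side. Changes are differences in log2(FPKM + 1) from 1 limma model of all 9 libraries, with Benjamini-Hochberg adjustment over the 14570 genes that reached 1 FPKM in at least 3 libraries, and a gene is called at an adjusted p under 0.05. All 36 genes passed that filter. On this scale the change of a gene of low level is understated.

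Promoters are shown for 4 of the genes, those of Syn1 and Unc13a because they held the left arm of the RE1 element, a motif of neuronal genes, and those of Syt2 and Vamp1 because these genes had the largest falls. RefSeq promoter windows (GRCm38.p6, 250 bases before to 50 after the start of transcription) were at hand for 29 of the 36 genes, and each is written 5′ to 3′ on the strand of its gene. In Syn1 (chrX:20920869-20921168, - strand) capitals mark the RE1 left arm TTCAGCACC, starting 232 bases before the start, and the cAMP response element TGACGTCA, starting 159 bases before it. In Unc13a (chr8:71671708-71672007, - strand) capitals mark the same RE1 arm read on the opposite strand, starting at base 273 of the window, after the start of transcription. In Syt2 (chr1:134646362-134646661, + strand, the first of its windows in the table) and Vamp1 (chr6:125215331-125215630, + strand) capitals mark GC boxes, GGGCGG on either strand.
Syn1: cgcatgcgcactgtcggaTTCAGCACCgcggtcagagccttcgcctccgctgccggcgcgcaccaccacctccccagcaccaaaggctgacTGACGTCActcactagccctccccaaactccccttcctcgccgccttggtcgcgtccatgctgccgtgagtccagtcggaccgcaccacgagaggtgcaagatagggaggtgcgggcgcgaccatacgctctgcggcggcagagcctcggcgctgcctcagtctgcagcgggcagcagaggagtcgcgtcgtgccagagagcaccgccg
Unc13a: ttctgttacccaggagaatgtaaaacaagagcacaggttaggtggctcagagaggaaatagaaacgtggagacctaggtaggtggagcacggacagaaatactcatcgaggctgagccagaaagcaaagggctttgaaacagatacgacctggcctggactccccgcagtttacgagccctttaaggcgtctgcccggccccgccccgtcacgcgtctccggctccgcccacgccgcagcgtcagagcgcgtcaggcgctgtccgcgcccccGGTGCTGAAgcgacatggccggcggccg
Syt2: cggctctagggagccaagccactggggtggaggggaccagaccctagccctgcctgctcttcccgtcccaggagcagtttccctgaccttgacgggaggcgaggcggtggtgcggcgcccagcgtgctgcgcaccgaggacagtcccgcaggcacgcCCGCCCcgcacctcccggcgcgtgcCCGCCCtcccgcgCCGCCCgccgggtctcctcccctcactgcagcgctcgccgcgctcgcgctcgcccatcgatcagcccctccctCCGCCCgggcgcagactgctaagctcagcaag
Vamp1: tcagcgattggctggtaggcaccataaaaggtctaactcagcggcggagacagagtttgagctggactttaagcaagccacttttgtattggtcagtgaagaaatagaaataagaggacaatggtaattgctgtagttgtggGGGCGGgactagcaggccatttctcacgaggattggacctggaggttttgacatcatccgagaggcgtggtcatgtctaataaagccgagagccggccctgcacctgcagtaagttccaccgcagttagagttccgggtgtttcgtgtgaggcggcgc

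With both strands searched, TTCAGCACC stood in the windows of 2 of the 29 genes (6.9%), against 58 of 10482 tested genes with a window (0.553%) and 122 of all 32851 promoters (0.371%). TGACGTCA was found in 1 of 29 (3.45%), against 3.47% of the tested genes. GC boxes stood in 23 of 29 (79.3%), against 68.9% of the tested genes, and TATAAA stood in 1 of 29, in Sv2b, against 8.75%. The right arm of RE1, GGACAG, is short and stood in 7 of 29 (24.1%), against 26.6% of the tested genes. Unc13a was among them, with GGACAG starting at base 91 of its window and, on the opposite strand like its left arm, at base 259. Whether these arms form a full RE1 was not tested. A match is a description of these letters in these windows and not a site of binding.

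In control tissue the levels of the genes spanned a wide range, as the plot of levels shows. Cplx1, complexin 1, had the highest mean at 325 ± 38.3 FPKM (SD, n = 3), followed by Vamp2 with 236 ± 12.6, Rab3a with 228 ± 7.28 and Snap25 with 200.4 ± 24.0. The spreads of Vamp2, Rab3a and Snap25 overlapped. At the other end stood Sv2c with 5.88 ± 2.35, Pclo with 7.34 ± 0.669, Unc13c with 7.72 ± 1.41 and Rims2 with 7.76 ± 0.178 FPKM, which did not differ beyond their spread. Together the 36 genes made up 0.596 to 0.699% of all FPKM in intervention libraries, 0.578 to 0.623% in experimental libraries and 0.971 to 1.0% in control libraries. Their summed level was 2091, 2192 and 2326 FPKM in intervention libraries, 2187, 1988 and 1976 FPKM in experimental libraries, and 3049, 3047 and 2952 FPKM in control libraries. The control sums did not overlap with those of the other groups, while the intervention and experimental sums overlapped.

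**Figure D1:**
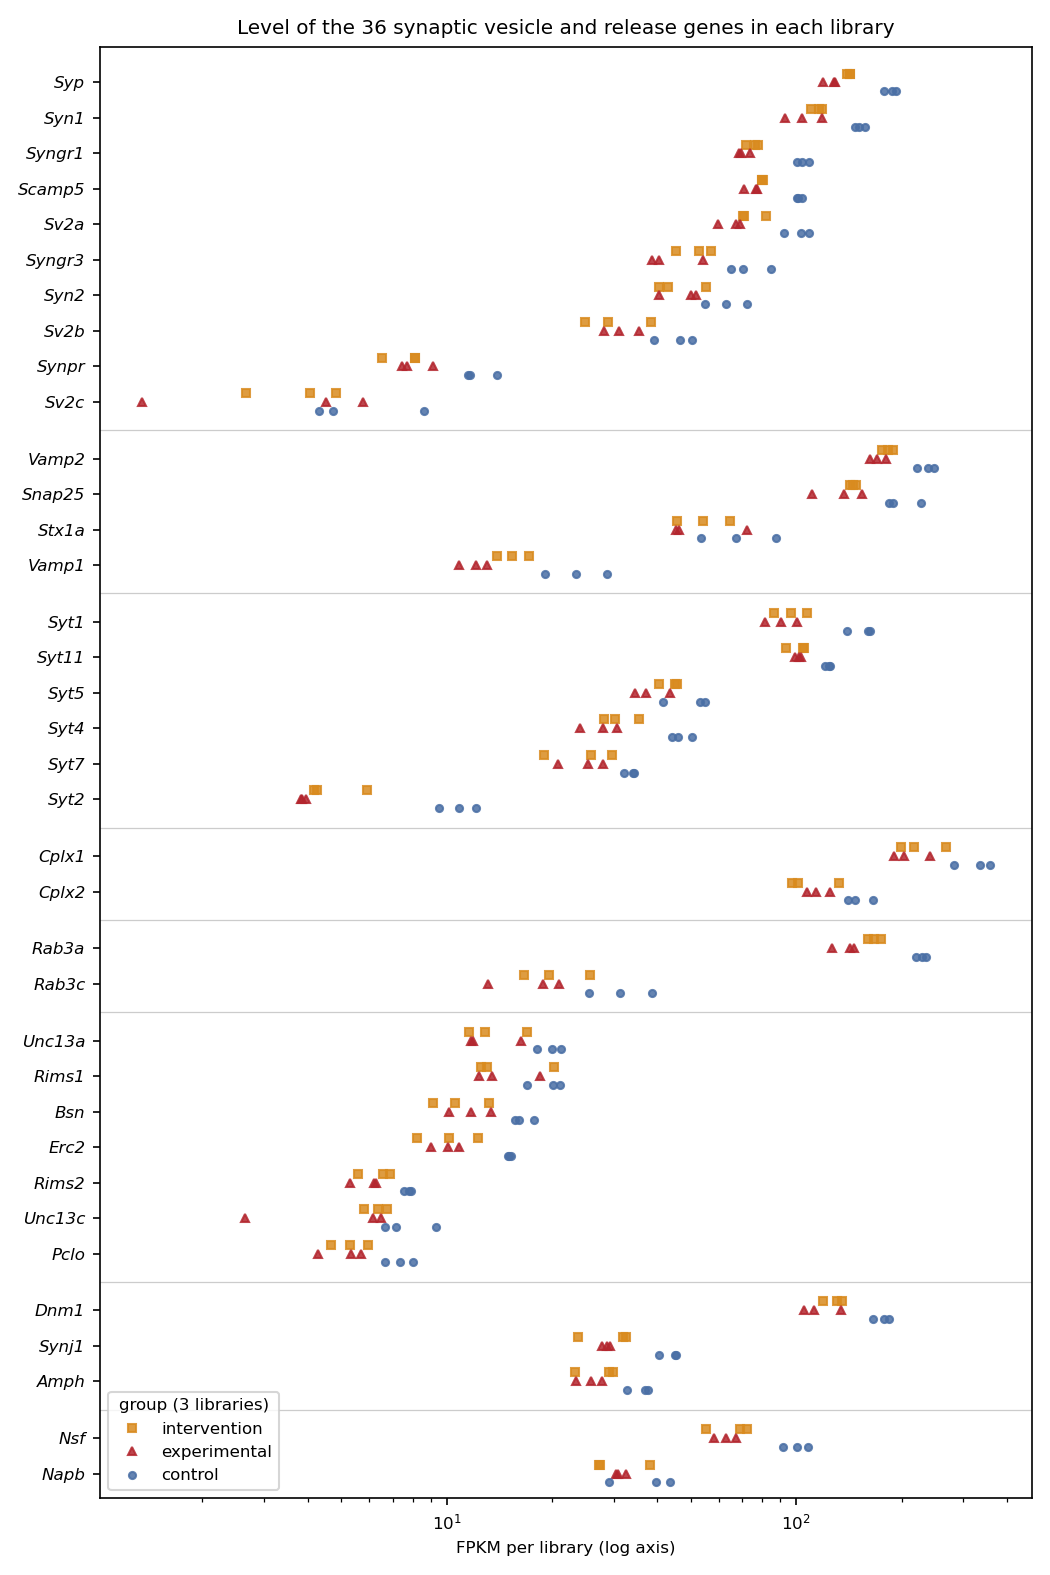
FPKM of each of the 36 genes in each library on a log axis, with genes grouped by role (vesicle membrane, SNARE, synaptotagmin, complexin, Rab3, active zone, membrane recycling, SNARE recycling) and ordered within a role by control mean; squares are intervention, triangles experimental and circles control libraries. The control circles lie to the right of the triangles without overlap in 31 of the 36 genes.

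The sum of FPKM over all genes ran from 303394 to 351195, and 13408 to 14260 genes reached 1 FPKM in a library. The table gives no counts and its low values showed no steps of single reads, so the depth of each library is unknown. Neuronal genes marked the tissue as brain, with Rbfox3, the neuronal nuclear antigen NeuN, at 23.4, 23.5 and 29.1 FPKM in intervention, 30.1, 21.7 and 22.2 FPKM in experimental and 34.3, 43.6 and 31.1 FPKM in control libraries. The library experimental 1 stood apart by regional markers. Its mean log2 level of 10 striatal genes was 2.14, against 3.43 to 4.92 in the other 8 libraries, with Drd1, a dopamine receptor of striatal projection neurons, at 1.48 FPKM there and 7.11 and 9.96 FPKM in the other experimental libraries.

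The comparison of the experimental with the control group asks how transcripts of the release machinery differ between these groups, whose treatments are not given in the labels. Each of the 36 genes had a lower mean in experimental libraries, 29 fell by the test and none rose. On the log2 scale 53.6% of all tested genes had a lower mean there. The median change was -0.56 log2 over the 36 genes, with a range of -1.27 to -0.23, beside a median of -0.03 over all tested genes. Of all tested genes 17.3% were called lower and 19.9% were called higher. In 31 of the 36 genes all experimental libraries lay below all control libraries, as did 25.5% of all tested genes. The differences were of similar size in many genes, with the mean FPKM of 27 genes lower by 25 to 45 percent. In bulk tissue, fewer neurons and less RNA per neuron cannot be told apart.

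Other cell markers moved in the same comparison. Of 14 genes of the neuronal cell body and cytoskeleton, 11 fell and none rose, with a median of -0.54, and 20 of the 36 release genes lay below that median. The summed FPKM of this neuronal list was 914 to 966 in experimental and 1267 to 1423 in control libraries. All 12 markers of microglia and macrophages rose, with a summed level of 1128 to 1331 FPKM in experimental and 203 to 232 FPKM in control libraries, and none of the 12 was at 0. Of 10 astrocyte markers 9 rose, with sums of 1131 to 1518 FPKM in experimental and 512 to 525 FPKM in control libraries. All 8 endothelial markers rose, with sums of 99.8 to 116 FPKM in experimental and 41.2 to 44.8 FPKM in control libraries. Of 8 oligodendrocyte markers 2 rose (1 to 4 with a library left out, with 4 without intervention 2 and 1 without control 2 or 3, experimental 1 or 3, or intervention 3), with sums of 1536 to 1751 FPKM in experimental and 1173 to 1419 FPKM in control libraries. The part of these shifts in the falls below was not tested. Set against the summed neuronal list, the 36 genes amounted to 191 to 228% in intervention, 206 to 227% in experimental and 207 to 240% in control libraries, and these ranges overlapped.

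**Figure D2:**
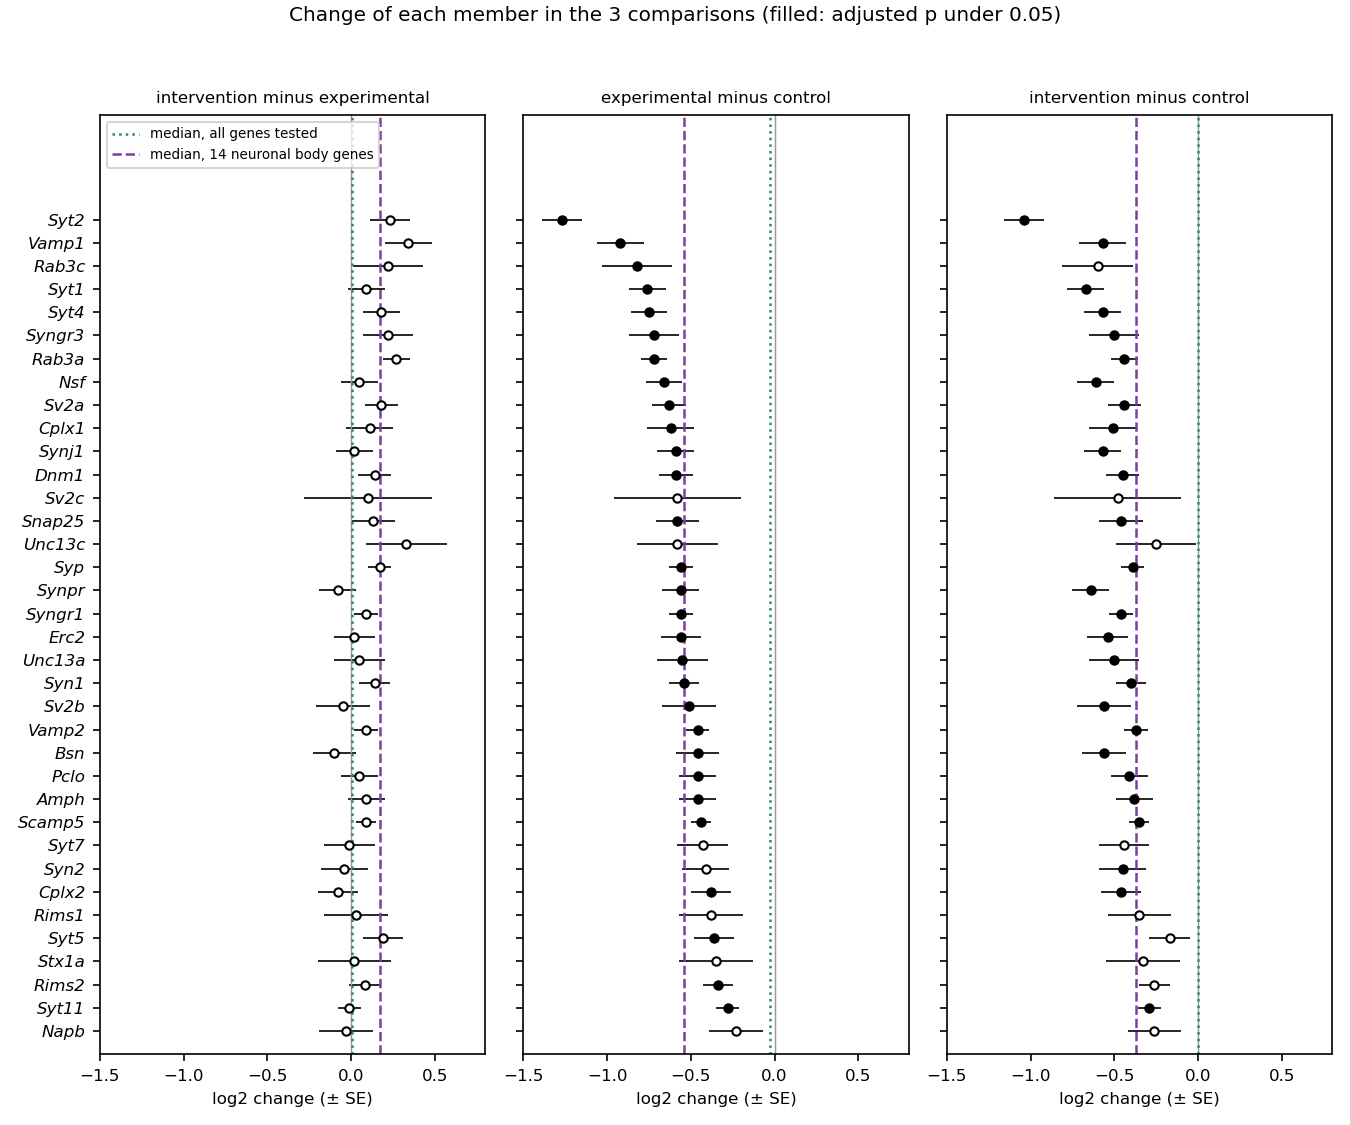
Log2 change of each of the 36 genes with its SE in intervention minus experimental, experimental minus control and intervention minus control (3 libraries a group, limma), with filled points at an adjusted p under 0.05 and lines at the medians of all tested genes and of 14 neuronal cell body genes. No point is filled in intervention minus experimental, and every point lies below 0 in both comparisons with control.

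Among the synaptotagmins, 5 of 6 fell, with a median of -0.59. Syt2 is a fast calcium sensor, used at many inhibitory and hindbrain terminals, and lies at chr1:134646677-134762593 on the + strand (mm10, GENCODE M21, protein coding). It had 3.83, 3.85 and 3.96 FPKM in experimental libraries, against 12.1, 9.50 and 10.9 FPKM in control libraries. The experimental values lay close together and far below the lowest control value. The change of Syt2 was -1.27 ± 0.12 (SE, adjusted p = 3.59e-05), its mean fell by 64.2%, and it ranked 4 among all tested genes in size of decrease. It was the 1 gene of the 36 whose mean was lower by more than 2-fold, with 3.88 ± 0.0689 FPKM in experimental and 10.8 ± 1.31 FPKM in control libraries (SD, n = 3).

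Syt1, the main fast calcium sensor of the forebrain (chr10:108497650-109010982, - strand), had 101, 81.5 and 90.6 FPKM in experimental and 161, 162 and 139 FPKM in control libraries. The groups did not overlap, and the change was -0.76 ± 0.11 (adjusted p = 0.000601). Syt4, which lacks the usual calcium binding of its first C2 domain and sits on peptide-containing vesicles, had 24.0, 30.7 and 28.0 FPKM in experimental and 45.9, 44.2 and 50.3 FPKM in control libraries. All its experimental values lay below its control values, with a change of -0.75 ± 0.11 (adjusted p = 0.000702). Of the exonic bases of Syt4, 14.5% overlap the antisense gene Gm26658. The strand setting of the counting is not given, so reads over these shared bases cannot be told apart. Gm26658 itself was listed at 0.0963 FPKM in experimental and 0.146 FPKM in control libraries.

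Syt11, a relative of Syt4 that does not bind calcium, changed least among the called synaptotagmins. It had 99.2, 102 and 103 FPKM in experimental and 124, 121 and 125 FPKM in control libraries, which did not overlap, and its change was -0.28 (adjusted p = 0.0115). Under quantile normalization the call of Syt11 was lost (adjusted p = 0.0566). Syt5, a calcium-binding synaptotagmin, was called at -0.36 (adjusted p = 0.0421) although its libraries overlapped, with 34.5 to 43.5 FPKM in experimental and 41.4 to 54.9 FPKM in control libraries. The call of Syt5 was lost in 9 of 19 other settings, among them those without control 2 or 3, experimental 1 or 3, or intervention 1 or 2, with an adjusted p of at most 0.138. Syt7, a slow sensor of high calcium affinity, did not pass the test (-0.43, adjusted p = 0.053), though its libraries did not overlap, with 20.8 to 28.0 FPKM in experimental and 32.1 to 34.2 FPKM in control libraries. Syt7 was called in 7 of 19 other settings, with adjusted p from 0.0155 to 0.166 over all of them.

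The make-up of the synaptotagmin sum also differed. Syt1 took 34.7, 28.9 and 31.4% of the FPKM of the 6 synaptotagmins in experimental libraries and 38.4, 38.1 and 34.0% in control libraries. Syt11 took 34.2, 36 and 35.8% in experimental and 29.6, 28.4 and 30.4% in control libraries. Syt2 took 1.32 to 1.37% in experimental and 2.23 to 2.90% in control libraries. The shares of Syt2 and Syt11 did not overlap between these groups, while those of Syt1 did.

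Of the 4 SNARE genes 3 fell, with a median of -0.52. Vamp1, the synaptobrevin of spinal and brainstem motor circuits and of some forebrain neurons (chr6:125215551-125245964, + strand), had 13.0, 12.1 and 10.8 FPKM in experimental and 28.7, 19.1 and 23.5 FPKM in control libraries. The groups did not overlap, although the control libraries differed widely among themselves. Its change was -0.92 ± 0.14 (adjusted p = 0.000765) and its mean fell by 49.6%. Vamp2, the main synaptobrevin of the forebrain, was called at -0.46 (adjusted p = 0.00119), with 163 to 181 FPKM in experimental and 222 to 247 FPKM in control libraries. Snap25 was called at -0.58 (adjusted p = 0.00562), with 111 to 154 FPKM in experimental and 184 to 228 FPKM in control libraries. Stx1a, syntaxin 1A, had 72.1, 46.2 and 45.1 FPKM in experimental and 67.4, 87.8 and 53.3 FPKM in control libraries, which overlapped, and its change of -0.35 did not pass (adjusted p = 0.243).

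The ratio of related genes within a library was compared for 9 pairs in all 3 comparisons, which gave 27 exact two-sided permutation tests, each with a smallest possible p of 0.1 and none with an adjusted p under 0.54. The ratio of Syt2 to Syt1 was 0.038, 0.0472 and 0.0437 in experimental and 0.0754, 0.0585 and 0.078 in control libraries, a difference of -0.71 log2 (exact permutation p = 0.1) with no overlap. The ratio of Vamp1 to Vamp2 was 0.072, 0.0711 and 0.0664 in experimental and 0.129, 0.0773 and 0.0984 in control libraries, a difference of -0.51 log2 (exact permutation p = 0.1), again without overlap. In this comparison the other 7 pairs, within the complexins, Sv2, synapsin, Rims and Unc13 families, gave exact permutation p-values of 0.2 to 1.0, all with overlapping libraries.

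Both Rab3 genes fell, with a median of -0.77. Rab3a, the most abundant Rab3 of brain (chr8:70754679-70758677, + strand), had 143, 147 and 127 FPKM in experimental and 221, 235 and 229 FPKM in control libraries. These groups stood far apart relative to their spread, with a change of -0.72 ± 0.08 (adjusted p = 9.33e-05). Rab3c, a close homologue, had 13.2, 20.9 and 18.8 FPKM in experimental and 31.4, 25.5 and 38.7 FPKM in control libraries. Its lowest value was in experimental 1, its groups did not overlap, and its change was -0.82 ± 0.21 (adjusted p = 0.0122).

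Of the 10 genes of the vesicle membrane, 8 fell, with a median of -0.56. Syngr3, a synaptogyrin that also binds the dopamine transporter, had 38.7, 54.1 and 40.5 FPKM in experimental and 70.2, 65.2 and 84.5 FPKM in control libraries, which did not overlap, with a change of -0.72 ± 0.15 (adjusted p = 0.00432). Sv2a, a transporter-like vesicle protein and the target of levetiracetam, was called at -0.63 (adjusted p = 0.000792), with 59.9 to 68.8 FPKM in experimental and 92.1 to 109 FPKM in control libraries. Syp, synaptophysin, the protein most used to stain terminals, had 126 ± 5.56 FPKM in experimental and 186 ± 7.27 FPKM in control libraries (SD, n = 3) and was called at -0.56 (adjusted p = 0.00017). Since 16.8% of the exonic bases of Syp overlap the antisense gene Gm14703, reads over those bases cannot be told apart either. Gm14703 was listed at 0.421 FPKM in experimental and 0.394 FPKM in control libraries. Smaller overlaps with genes of the other strand included 5.13% of the exonic bases of Syt7 (Gm26859) and 3.92% of those of Unc13a (Colgalt1).

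The other called genes of the vesicle membrane changed by similar amounts. Synpr, synaptoporin, and Syngr1 were each called at -0.56 (adjusted p = 0.00369 and 0.000211), Scamp5 at -0.44 (adjusted p = 0.000598), and Sv2b at -0.51 (adjusted p = 0.0305). Syn1, the synapsin that ties vesicles to the reserve pool, was called at -0.54 (adjusted p = 0.0016). The call of Sv2b was lost in 7 of 19 other settings, among them those without control 1 or 2 or experimental 2 or 3, with an adjusted p of at most 0.1. Syn2, another synapsin, did not pass (-0.41, adjusted p = 0.0502), though its experimental range of 40.5 to 51.6 FPKM lay below its control range of 54.7 to 72.3 FPKM. Syn2 was called in 6 of 19 other settings, with adjusted p from 0.00986 to 0.164 over all of them.

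Sv2c, the Sv2 form enriched in the basal ganglia, varied most within groups and is given in full, a choice made after its values were seen. It had 4.06, 4.81 and 2.66 FPKM in intervention, 1.35, 4.51 and 5.75 FPKM in experimental and 4.32, 4.72 and 8.58 FPKM in control libraries. The groups overlapped, the experimental minus control change was -0.58 ± 0.38 and did not pass (adjusted p = 0.254), and the value of 1.35 FPKM was in experimental 1. Without that library the change of Sv2c was -0.12 (adjusted p = 0.764).

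Both complexins were called, Cplx1 at -0.62 (adjusted p = 0.00682) and Cplx2 at -0.38 (adjusted p = 0.0354). The call of Cplx2 was lost in 7 of 19 other settings, among them those without any 1 of the control libraries or without experimental 2 or 3, with an adjusted p of at most 0.117. All 3 genes of membrane retrieval fell, Dnm1 (dynamin 1) and Synj1 (synaptojanin 1) at -0.59 each (adjusted p = 0.00155 and 0.00329) and Amph (amphiphysin) at -0.46 (adjusted p = 0.00865). Nsf, the ATPase that takes SNARE complexes apart (chr11:103821782-103954056, - strand), had 67.1, 63.1 and 58.2 FPKM in experimental and 108, 91.6 and 100.1 FPKM in control libraries, without overlap, and fell by 0.66 ± 0.11 log2 (adjusted p = 0.00153). Napb, its beta-SNAP adaptor, had 30.8, 30.4 and 32.6 FPKM in experimental and 39.7, 29.1 and 43.4 FPKM in control libraries. These overlapped, and the change of Napb, the smallest of the 36 at -0.23, did not pass (adjusted p = 0.29).

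In the active zone 5 of 7 genes fell, with a median of -0.46, and the levels were low throughout. Erc2 (ELKS2, CAST), which links scaffold proteins, was called at -0.56 (adjusted p = 0.00625), and Unc13a (Munc13-1), which primes vesicles, at -0.55 (adjusted p = 0.0188). The large scaffolds Bsn (bassoon) and Pclo (piccolo) were each called at -0.46 (adjusted p = 0.0217 and 0.0107). Rims2, which tethers calcium channels and Rab3, had 6.21, 5.29 and 6.28 FPKM in experimental and 7.91, 7.56 and 7.81 FPKM in control libraries, without overlap, and was called at -0.34 (adjusted p = 0.0141). Without experimental 2 the call of Rims2 was lost (adjusted p = 0.0518), as were those of Unc13a and Bsn without that library, without control 1 or 2, or without experimental 3 (adjusted p at most 0.0692 and 0.0748).

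Rims1, the homologue of Rims2, and Unc13c (Munc13-3), a form best known from cerebellum, did not pass, at -0.38 (adjusted p = 0.148) and -0.58 (adjusted p = 0.0898). Unc13c had 2.65, 6.17 and 6.47 FPKM in experimental libraries, with the low value in experimental 1, and 7.17, 6.67 and 9.32 FPKM in control libraries. Without that library its change was -0.24 (adjusted p = 0.181). Rims1 had 18.5, 12.4 and 13.5 FPKM in experimental libraries, with the high value in experimental 1, and 20.1, 21.1 and 16.9 FPKM in control libraries.

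**Figure D3:**
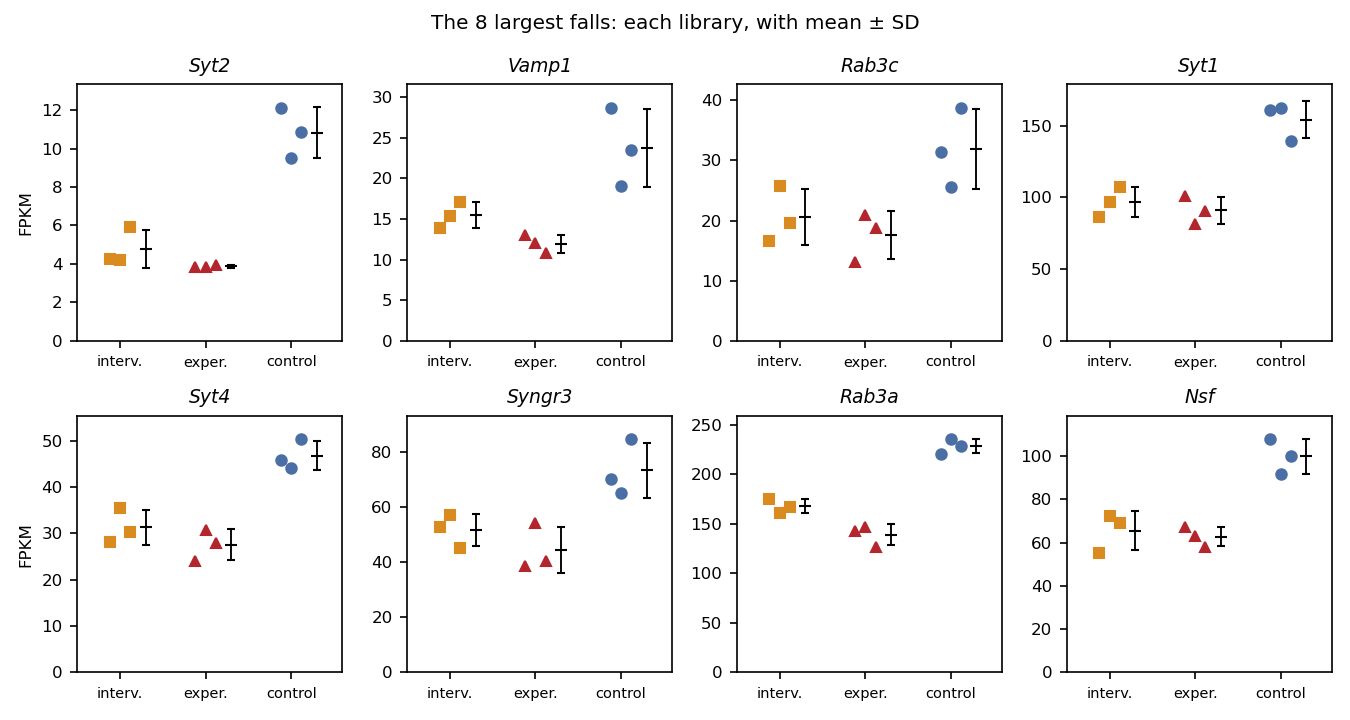
FPKM in each library of the 8 genes with the largest called falls, on axes that start at 0, with intervention (squares), experimental (triangles) and control (circles) libraries and the mean ± SD of 3 libraries at the right of each group. In all 8 genes the experimental libraries lie below the control libraries, and the intervention values of Syt2, Vamp1 and Rab3a lie between the other groups.

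The count of 29 called genes ran from 24 to 30 when each of the 9 libraries was left out in turn, and was 29 without experimental 1. The tested genes called lower ran from 1707 to 2575 in the same fits, and numbered 1990 without experimental 1. All 36 genes kept lower means under each of the 19 other settings, and 22 of the 29 were called under all of them. The matching shares over all tested genes were not computed. When FPKM were rescaled to a fixed sum per library (TPM), the median of all tested genes moved to -0.18 and that of the 36 genes to -0.73, so their distance was -0.55, beside -0.53 on the deposited scale. Over all genes, 2521 were called lower and 2894 higher on the deposited scale, and 4661 lower and 2175 higher after that rescaling.

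Other genes of the release machinery, a list of 48 outside the 36, moved less evenly. Of these, 46 passed the filter (Syn3 and Cplx4 did not), 25 fell and 3 rose, with a median of -0.40. Cadps, which primes dense-core vesicles, had 10.8 ± 0.885 FPKM in experimental and 18.7 ± 1.63 FPKM in control libraries (SD, n = 3) and changed by -0.75 (adjusted p = 0.000498). Sh3gl2 (endophilin A1), which bends membrane during retrieval, had 25.5 ± 3.34 FPKM in experimental and 41.4 ± 1.41 FPKM in control libraries (SD, n = 3) and changed by -0.69 (adjusted p = 0.000579). The ranges of both genes stood apart without overlap.

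The 3 genes that rose are homologues of release genes that serve membrane traffic in many cell types. Syngr2 had 15.9, 17.1 and 17.2 FPKM in experimental and 7.26, 5.41 and 6.38 FPKM in control libraries and rose by 1.28 (adjusted p = 5.03e-05), while Syngr1 and Syngr3 fell. Snap23 had 5.23, 5.09 and 5.60 FPKM in experimental and 2.65, 2.54 and 2.74 FPKM in control libraries and rose by 0.79 (adjusted p = 6.16e-05), while Snap25 fell. Vamp3, cellubrevin, had 19.9, 20.3 and 20.2 FPKM in experimental and 14.0, 11.1 and 11.4 FPKM in control libraries and rose by 0.69 (adjusted p = 0.000326), while Vamp1 and Vamp2 fell. In each of these 3 genes all experimental libraries lay above all control libraries, and each of the 3 rises was called under all 19 other settings. Glial and endothelial marker lists rose in the same libraries, with the sums given above, and their part in these rises was not tested. Vamp4, of the trans-Golgi network, and Snap29, chosen after their values were seen, changed by -0.35 (adjusted p = 0.0121) and 0.15 (adjusted p = 0.169).

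**Figure D4:**
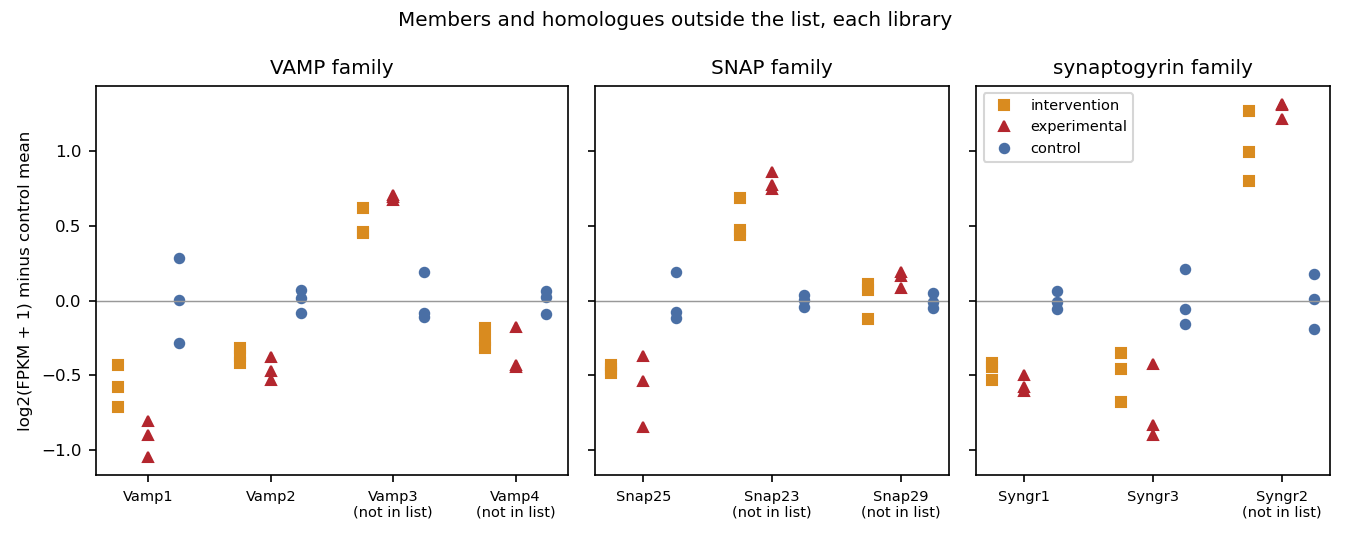
Difference of log2(FPKM + 1) from the control mean in each library for genes of the VAMP, SNAP and synaptogyrin families, in intervention (squares), experimental (triangles) and control (circles) libraries. Vamp1, Vamp2, Snap25, Syngr1 and Syngr3 lie below 0, and Vamp3, Snap23 and Syngr2 above 0, in all 6 intervention and experimental libraries.

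On the postsynaptic side, 13 of 23 genes fell and none rose in the experimental group, with a median of -0.35, and their summed level was 597 to 778 FPKM in experimental and 734 to 872 FPKM in control libraries, which overlapped. The difference between the presynaptic and postsynaptic lists was not tested.

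Neurons of different regions and classes express different release genes, so their markers are set beside the members. None of 10 striatal markers was called, and their median of -0.96 rested on single libraries. It was -0.27 without experimental 1, -1.40 without experimental 3 and -1.33 without control 1, and 2 markers were called in each of the last 2 cases. Their summed level was 58.6 to 313 FPKM in experimental and 169 to 498 FPKM in control libraries, and the largest changes were those of Drd2 (-1.25, adjusted p = 0.15) and Penk (-1.10, adjusted p = 0.304), which were -0.44 and -0.05 without experimental 1. Of 9 cortical markers 1 was called, Rasgrf2 (-0.62, adjusted p = 0.00309), with Lamp5 at -0.69 (adjusted p = 0.121, and 0.0289 without control 3). The cortical median of -0.51 was -0.16 without experimental 2, -0.22 without control 1 and -0.28 without control 2. The cortical sums were 62.8 to 128 FPKM in experimental and 81.4 to 153 FPKM in control libraries.

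Thalamic markers fell in 5 of 8 genes, with a median of -0.64 and sums of 45.4 to 62.2 FPKM in experimental and 80.5 to 103 FPKM in control libraries. Slc17a6 (VGLUT2), the glutamate carrier of thalamic and brainstem terminals and also in the list of other release genes, changed by -1.22 (adjusted p = 0.0132) and Tcf7l2, a transcription factor of thalamic neurons, by -0.84 (adjusted p = 0.0147). The count of 5 was 2 without control 1, where the call of Tcf7l2 was lost (adjusted p = 0.0523), and 3 without experimental 2. Of 7 genes listed as cerebellar markers 4 passed the filter and none was called, with Cbln1 at -0.77 (adjusted p = 0.171) and Zic1 at -0.56 (adjusted p = 0.0956). Without experimental 1 these were -0.40 and -0.29, and 1 gene of this list was called. Gabra6, which defines cerebellar granule cells, was listed at 0 in all experimental libraries, and Gabra6, Cbln3 and Pcp2 were under the filter in every group. Their control means were 0.0195, 0.109 and 0.0281 FPKM. Changes of the 4 genes that passed therefore cannot be assigned to cerebellar neurons.

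Of 8 genes listed for parvalbumin interneurons, a class known to use Syt2, 5 fell with a median of -0.79. Their sums were 92.6 to 138 FPKM in experimental and 192 to 207 FPKM in control libraries. Gad1, Gad2 and Tac1 on this list are not particular to the class, with control means of 53.5, 37.7 and 12.3 FPKM. The sums and the count are therefore not of this class alone. The largest changes were those of Tac1, which the striatal list also holds (-0.89, adjusted p = 0.236, and -0.18 without experimental 1), and Gad1, the enzyme that makes GABA (-0.83, adjusted p = 0.00224). Pvalb itself had 41.9, 22.6 and 35.1 FPKM in intervention, 27.0, 24.4 and 25.2 FPKM in experimental and 53.8, 49.5 and 32.4 FPKM in control libraries. All its experimental values lay below its control values, and its intervention values overlapped with the control values. Its call (-0.77, adjusted p = 0.0249) was lost without control 1 or 2 or experimental 2 or 3, with an adjusted p of at most 0.0905. The part of these regional and class markers in the change of Syt2, Vamp1 or any other release gene was not tested.

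The regional score of a library, its mean log2 level of cortical minus that of striatal markers, was -0.92, -0.73 and 0.00 in intervention, 1.49, -1.24 and -1.35 in experimental and 0.17, -1.08 and -1.85 in control libraries. Sv2c and Syt5 were lowest in the library with the highest score in all 3 groups, and Vamp1, Snap25, Cplx1 and Amph were highest there in all 3. Unc13a was lowest in the library with the lowest score in all 3 groups. None of the 36 genes did both, following or opposing the score at both ends in all 3 groups. These orders were looked up in the 36 genes only, and no share over all tested genes was computed. With 3 libraries a group such orders can also arise by chance, and a link of these genes to region was not tested. With the regional score as a term in the model, an alternative chosen after the values were seen, 32 of the 36 genes were called lower in the experimental group and the median was -0.57. Over all tested genes the count called lower rose too, from 2521 in the main fit to 2691 in the fit with the score. The 3 genes that gained a call in that fit were Rims1, Unc13c and Syt7.

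**Figure D5:**
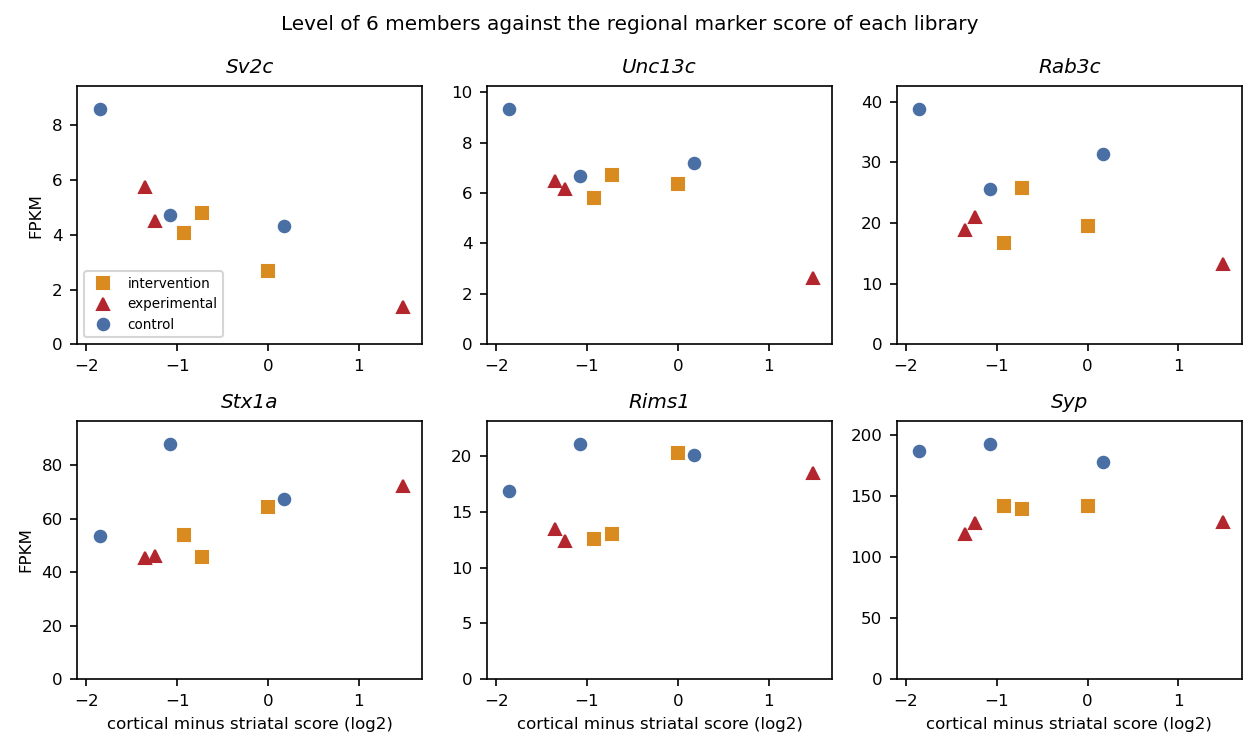
FPKM of 6 genes against the cortical minus striatal marker score of each library (log2 units), with intervention (squares), experimental (triangles) and control (circles) libraries; the genes were chosen after their values were seen. Experimental 1 lies alone at a score of 1.49, with the lowest Sv2c, Unc13c and Rab3c of the 9 libraries, while Syp there is close to the other experimental libraries.

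The intervention group was then set against the experimental group, the comparison that bears on the treatment named in the title as far as the labels allow. No gene of the 36 and no gene of the 14570 tested was called (0.0%, limma), while 1352 tested genes (9.28%) and 3 of the 36 had an unadjusted p under 0.05. Other settings called between 0 and 33 tested genes lower and between 0 and 2 higher, and none of the 36. The median change of the 36 genes was 0.09 with a range of -0.10 to 0.34, beside 0.01 over all tested genes. Single libraries moved this median, which was 0.04 without experimental 2, 0.05 without intervention 3 and 0.16 without intervention 1. Means on the log2 scale were higher in the intervention group in 28 of the 36 genes, as they were in 52.7% of all tested genes. That count was 35 without intervention 1 and 24 without intervention 3.

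The 5 genes with the smallest p in limma were all higher in intervention libraries, and none passed the adjustment. Rab3a had 175, 161 and 167 FPKM in intervention and 143, 147 and 127 FPKM in experimental libraries, a difference of 0.27 ± 0.08 (adjusted p = 0.235). Syp had 142, 139 and 142 FPKM in intervention and 129, 128 and 119 FPKM in experimental libraries, a difference of 0.17 ± 0.07 (adjusted p = 0.451). In both genes no intervention library overlapped with an experimental one, and each intervention value lay below every control value.

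Vamp1 had 13.9, 15.4 and 17.1 FPKM in intervention and 13.0, 12.1 and 10.8 FPKM in experimental libraries, a difference of 0.34 ± 0.14 (adjusted p = 0.467). Syt2 had 4.26, 4.19 and 5.90 FPKM in intervention and 3.83, 3.85 and 3.96 FPKM in experimental libraries, with 0.23 ± 0.12 (adjusted p = 0.627). Sv2a had 70.9, 81.8 and 70.3 FPKM in intervention and 59.9, 68.8 and 67.1 FPKM in experimental libraries, with 0.18 ± 0.10 (adjusted p = 0.631). Together with Scamp5, which had 79.6 to 80.4 FPKM in intervention and 71.0 to 77.3 FPKM in experimental libraries, these were the 6 genes of the 36 whose intervention libraries all lay above the experimental ones. Of all tested genes 5.07% did so, and 8.16% lay wholly below, as none of the 36 did.

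The ratio of Vamp1 to Vamp2 was 0.0763, 0.0873 and 0.0906 in intervention and 0.072, 0.0711 and 0.0664 in experimental libraries, a difference of 0.28 log2 without overlap (exact permutation p = 0.1). The ratio of Cplx1 to Cplx2 was 2.15, 2.05 and 2.03 in intervention and 1.93, 1.67 and 1.88 in experimental libraries, a difference of 0.19 log2 (exact permutation p = 0.1), also without overlap. The ratio of Syt2 to Syt1 differed by 0.19 log2 with overlapping libraries (exact permutation p = 0.3). Neuronal cell body genes had a median of 0.17 in this comparison, with all 14 means higher in intervention libraries, and microglial markers had a median of -0.28 (-0.16 without intervention 3), with all 12 means lower. Endothelial markers had a median of -0.44, with all 8 means lower, and astrocyte markers -0.14, with 8 of 10 lower. Oligodendrocyte markers had a median of 0.20, with all 8 means higher, and postsynaptic genes 0.01, with 11 of 23 lower. None of these was called.

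The intervention group was also set against the control group, which it shares with the first comparison, so both carry the spread of the same control libraries. All 36 genes had lower means in the intervention group, as did 50.6% of all tested genes on the log2 scale. By the test 27 of the 36 fell and none rose. Their median was -0.46 with a range of -1.04 to -0.17, beside -0.003 over all tested genes. Of all tested genes 11.4% were called lower and 16.9% higher. In 28 of the 36 genes all intervention libraries lay below all control libraries, as did 20.5% of all tested genes. Without intervention 1 the count of called genes was 17, and with each of the other libraries left out it lay between 19 and 27. The tested genes called lower numbered 850 without intervention 1 and at most 1581 with another library left out. Over all genes 1659 were called lower and 2461 higher on the deposited scale, 3622 lower and 1706 higher after rescaling to TPM, and 2041 lower and 2009 higher after quantile normalization. The median of all tested genes moved to -0.15 under TPM and that of the 36 genes to -0.61.

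The 5 largest called falls were those of Syt2, Syt1, Synpr, Nsf and Vamp1. Syt2 changed by -1.04 (adjusted p = 0.00024), with 4.78 ± 0.968 FPKM in intervention and 10.8 ± 1.31 FPKM in control libraries (SD, n = 3). Syt1, with 86.1, 96.8 and 107 FPKM in intervention and 161, 162 and 139 FPKM in control libraries, changed by -0.67 (adjusted p = 0.00205). Synpr, with 6.55, 8.12 and 8.12 FPKM in intervention and 11.5, 11.7 and 14.0 FPKM in control libraries, changed by -0.64 (adjusted p = 0.00273). In each of these the groups stood apart without overlap.

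Nsf, with 55.3, 72.2 and 69.2 FPKM in intervention and 108, 91.6 and 100.1 FPKM in control libraries, changed by -0.61 (adjusted p = 0.00384). Vamp1 had 15.5 ± 1.62 FPKM in intervention and 23.8 ± 4.8 FPKM in control libraries (SD, n = 3) and changed by -0.57 (adjusted p = 0.0141), a call lost without intervention 1 (-0.50, adjusted p = 0.0564). The ratio of Syt2 to Syt1 was 0.0494, 0.0432 and 0.055 in intervention and 0.0754, 0.0585 and 0.078 in control libraries, a difference of -0.52 log2 without overlap (exact permutation p = 0.1).

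By role, the calls in intervention minus control were 9 of 10 for the vesicle membrane, 3 of 4 for the SNAREs, 4 of 6 for the synaptotagmins and 4 of 7 for the active zone. Both complexins and all 3 genes of membrane retrieval were called, and 1 gene each of the Rab3 pair and of the Nsf and Napb pair. In all, 26 genes were called in both comparisons with control, which use the same control libraries. The share of all tested genes called in both was not computed. In the single comparisons 17.3% of them were called lower in experimental and 11.4% in intervention libraries. In the main fit Rab3c, Syt5 and Rims2 were called only in experimental minus control, with adjusted p-values of 0.0555, 0.311 and 0.0533 in intervention minus control. In that fit Syn2 was called only in intervention minus control (-0.45, adjusted p = 0.0452). The intervention and control libraries of Syn2 overlapped, at 40.5 to 55.2 and 54.7 to 72.3 FPKM, and its call held in 9 of 19 other settings, with an adjusted p of at most 0.151. It was lost without control 1 or 3, experimental 1 or 2, or intervention 1 or 3. Syngr3, Cplx1, Cplx2, Snap25, Unc13a, Sv2b, Pclo and Amph each kept their call in 13 to 15 of the 19 settings. The difference between these comparisons is the intervention minus experimental change, which was called for none of these 4 genes, Rab3c, Syt5, Rims2 and Syn2. The mean FPKM of the intervention group lay between those of the experimental and control groups in 28 of the 36 genes. As all 36 intervention means lay below the control means, this count rests only on the differences between intervention and experimental means, none of which was called. On the log2 scale 28 of the 36 differences were above 0, beside 52.7% of all tested genes, and 24 to 35 over the other settings.

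The marker lists moved alongside in intervention minus control too. Neuronal cell body genes had a median of -0.37 with 10 of 14 called lower, a count that was 6 without intervention 1, and their sums were 1022 to 1146 FPKM in intervention and 1267 to 1423 FPKM in control libraries. All 12 microglial markers rose with sums of 899 to 1176 FPKM in intervention and 203 to 232 FPKM in control libraries, as did 9 of 10 astrocyte markers, with sums of 1120 to 1293 FPKM in intervention and 512 to 525 FPKM in control libraries. Of 8 endothelial markers 4 rose, with sums of 74.5 to 79.8 FPKM in intervention and 41.2 to 44.8 FPKM in control libraries. Of 8 oligodendrocyte markers 3 rose, with overlapping sums of 1391 to 2248 FPKM in intervention and 1173 to 1419 FPKM in control libraries. Of 23 postsynaptic genes 14 fell and none rose, a count that was 7 without control 2 or without intervention 1. Of the other release machinery 16 genes fell and 3 rose. Those 3 were again Syngr2 (1.02, adjusted p = 0.000366), Snap23 (0.53, adjusted p = 0.00129) and Vamp3 (0.51, adjusted p = 0.00329). No thalamic marker was called in this comparison (1 without control 3, experimental 2 or intervention 3), and 4 of 8 genes listed for parvalbumin interneurons were. The part of these shifts was not tested.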

How the data were processed

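Total RNA of mouse brain was sequenced in 9 libraries, 3 each of an intervention, an experimental and a control group. Extraction used a Qiagen RNeasy kit and library making a SMARTer mRNA-seq kit, per the labels' protocols. The authors deposited gene-level FPKM for every library, per the file headers, and mm10 is named in the submitters' processing notes. Aligner, counter, annotation and strand setting: not given in the sources used here. The depth behind each FPKM is unknown, so no counting intervals could be computed. The table held 0 further columns of per-sample values.

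From these values log2(FPKM + 1) was computed, genes with at least 1 FPKM in 3 or more libraries were kept, and 1 mean per group was fitted with limma 3.58.1 (intensity trend, 3.53 prior and 6 residual degrees of freedom, R 4.3.3), two-sided, with Benjamini-Hochberg adjustment over 14570 genes. The script was tested on simulated data. Ratios of pairs were compared by exact permutation (scipy 1.17.1, smallest p 0.1). Positions come from GENCODE M21 (mm10) and promoters from RefSeq (GRCm38.p6). The members, lists, tests and alternatives were chosen with earlier results of these data known. All 36 members are named. Values of every library are given for the 8 largest called falls and 3 smallest changes in experimental minus control. The 5 smallest p in intervention minus experimental and the 5 largest called falls in intervention minus control are also given. Of other release genes the rule names the 4 smallest adjusted p per direction, some of which are not reported here, and of regional lists the 2 largest changes. Alternatives were the pseudocount, the filter, TPM, quantile normalization, 2 groups only, no trend, the replicate number as a block, each library left out, and a regional marker score as a covariate. Correlations of same-numbered libraries ran from -0.536 to 0.209, and those of differently numbered libraries from -0.534 to 0.493. With 3 libraries a group these ranges cannot decide whether equal numbers mark paired samples, and the main model left them unpaired. A search for miR-124 seed matches was not run, since its mature sequence was not at hand.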

Additional observations from a re-analysis of the deposited data

How the results depend on the processing

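Under 19 other settings the 36 genes kept lower means in both comparisons with control. In experimental minus control, 24 (no filter) to 33 (TPM) were called lower, and 24 to 30 with a library left out. The tested genes called lower were 1910 with no filter, 4661 under TPM and 1707 to 2575 with a library left out. The median of the 36 genes was -0.50 to -0.58 with a library left out and -0.73 under TPM. In intervention minus control, 17 (without intervention 1) to 27 were called lower with a library left out and 18 with no filter, and the median was -0.61 under TPM. The tested genes called lower there numbered 1069 with no filter, 3622 under TPM and 850 to 1581 with a library left out, of which 850 was without intervention 1, 918 without control 1 and 966 without control 2. In intervention minus experimental, quantile normalization called 33 tested genes lower and 2 higher, the fit without intensity trend 8 lower, the fit with the regional score 1 lower, and leaving out a library 0 to 1 lower and 0 to 1 higher. None of these was among the 36. The cause was not tested. No called gene and no median of the 36 changed its sign, but in intervention minus experimental, where none was called, 19 of the 36 changes had both signs over the settings, and 1 to 12 lay below 0. The median there was 0.04 to 0.16 with a library left out.

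With the replicate number as a block, 27 of the 36 genes were called lower in experimental minus control, 22 in intervention minus control and 0 in intervention minus experimental, with 2036 and 1149 tested genes lower and 2666 and 2102 higher in the comparisons with control. Whether equal numbers mark paired samples could not be decided. FPKM carry no depth, so the precision of low genes such as Sv2c and Pclo cannot be given beyond the spread of 3 libraries.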
